A study of Mus musculus with 12 samples.

Results

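The cytosolic ribosomal protein genes were followed in 12 single tendon cells. Members were all symbols of the count table that start with Rpl or Rps and go on with a number, a stalk protein letter or the letter a, so that pseudogenes with -ps in the name and the S6 kinases fell out. This gave 89 of 55418 symbols, 53 of the large and 36 of the small ribosomal subunit. Of these, 77 are the canonical genes (46 large, 31 small), and 12 are paralogues or copies: Rpl22l1, Rpl7l1, Rpl10l, Rpl39l, Rpl3l, Rps27l, and the pseudogene entries Rps4l, Rps12l1, Rpl32l, Rpl6l, Rps3a2 and Rps3a3.

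The cells came from uninjured, untreated Achilles tendons of mice on a C57BL/6 background (C57BL/6J in the study's methods). Of the 12 cells, 6 were Tnmd-/- ScxGFP+ and 6 were WT ScxGFP+. The ScxGFP reporter makes cells fluoresce that use the gene of the transcription factor Scx, which marks the tendon lineage. Tnmd encodes tenomodulin, a membrane protein of mature tendon cells. In the Tnmd-/- animals the gene is missing in all tissues from the germ line on. Tnmd is X-linked, and in the study's methods WT covers hemizygous males as well as females that are homozygous or heterozygous. Which of these a WT cell came from is not given. From 2 explanted tendons, GFP+ cells were picked singly after collagenase digestion and amplified by Smart-Seq2, which copies whole transcripts and tags no molecules. The labels give neither an age nor the animal behind a cell. Each genotype therefore stands as 1 sample, the genotypes were not tested against each other, and intervals cover counting error only. Cells carry the number of the picked cell.

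The ribosome is built from ribosomal RNA and a set of proteins of which nearly every one is needed once per particle. Their mRNAs are among the most abundant in growing cells, and many start with a run of pyrimidines directly after the cap, through which the mTOR pathway sets their translation. In tendon, a tissue of few cells and much collagen, this machinery serves the making of matrix proteins.

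The start of these genes is shown for 4 large subunit genes, to let the pyrimidine run be seen. Each line gives the RefSeq sequence (GRCm38.p6) 5′ to 3′ on the gene's strand over 30 bases centred on the annotated start, and capitals mark a run of at least 5 pyrimidines that touches the middle of the window. The windows are Rpl7a at chr2:26910792-26910821 (plus strand), Rpl28 at chr7:4792950-4792979 (plus), Rpl38 at chr11:114668565-114668594 (plus) and Rplp0 at chr5:115559452-115559481 (plus).
Rpl7a: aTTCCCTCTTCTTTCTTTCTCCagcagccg
Rpl28: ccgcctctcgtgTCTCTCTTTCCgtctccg
Rpl38: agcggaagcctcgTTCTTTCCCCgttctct
Rplp0: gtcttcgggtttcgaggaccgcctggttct
Rpl7a, Rpl28 and Rpl38 carry the run, and the annotated start of Rplp0, the member with the most counts, shows none in this window. Of the 6 windows drawn in this way, those of Rpl41 and of Rpl3l, which are not printed, held no such run either. Among the 57 canonical members with a promoter entry, 18 (31.6%) held CTTTCC on the sense strand within 50 bases of the start, against 5.43% of 27025 genes. The motif CCGGAAG, searched on both strands over 250 bases before to 50 after the start, was found in 24 of the 57 (42.1%) and in 9.93% of the 27025 genes. Neither motif contains the other on either strand, and a match describes the sequence only.

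A second pair of sequences shows which paralogue reads can be told apart from the gene it resembles. The coding sequences of Rps27 (chromosome 3) and Rps27l (chromosome 9), both small subunit proteins of 255 coding bases, are given 5′ to 3′ from GENCODE M21 (GRCm38), with capitals at the 61 positions where they differ.
Rps27: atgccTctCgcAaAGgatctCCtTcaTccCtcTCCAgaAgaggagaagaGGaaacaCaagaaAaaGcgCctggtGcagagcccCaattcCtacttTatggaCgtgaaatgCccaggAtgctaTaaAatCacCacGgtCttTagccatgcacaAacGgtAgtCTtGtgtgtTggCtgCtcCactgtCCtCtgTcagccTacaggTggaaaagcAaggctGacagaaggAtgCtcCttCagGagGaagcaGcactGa
Rps27l: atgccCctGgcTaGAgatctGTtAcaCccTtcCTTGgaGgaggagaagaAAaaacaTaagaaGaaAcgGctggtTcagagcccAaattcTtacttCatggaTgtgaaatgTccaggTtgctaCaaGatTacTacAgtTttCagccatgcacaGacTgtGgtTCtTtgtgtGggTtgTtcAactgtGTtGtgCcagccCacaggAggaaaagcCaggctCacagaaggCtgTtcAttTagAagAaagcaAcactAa
The 2 coding sequences were 76.1% identical. None of the windows of 100 bases along the Rps27l transcript occurred in another gene. For Rps27, 98.4% of such windows occurred in another gene as well, which was Gm17241 or Rps27rt and not Rps27l. Reads that map to more than 1 place were not counted. The windows are shorter than the reads of the study, and Rps27 had 68926 counts over the 12 cells.

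Depth and cell identity bear on every value. Total counts ran from 892713 to 10333351 for Tnmd-/- and from 4516036 to 13613080 for WT. Tnmd had 8 counts over the 6 Tnmd-/- cells. WT cell 14 had 10178, WT cell 2 had 7 and the remaining 4 WT cells had 0. All 13 tendon fibroblast markers were detected in at least 1 cell. Their summed level ran from 1818 CPM (counts per 1000000 counts of the cell) in Tnmd-/- cell 3 to 177982 in WT cell 14. Dcn alone made up 133605 CPM in WT cell 14. Scx reached 10 counts only in WT cells 1, 4 and 10, with 174, 1355 and 544 counts. It had 3 counts over the 6 Tnmd-/- cells. The markers of other cell types were low: red blood cell genes and 5 of 6 immune genes were at 0 in all 12 cells, while mural genes reached 668 CPM in a WT cell and cartilage genes 1330 CPM in a Tnmd-/- cell. Tnmd-/- cells 3 and 7 stood apart. They were the shallowest, with 1504775 and 892713 counts, and mitochondrial genes took 51.8% and 7.30% of their counts, against 1.75% to 5.73% in the other 10 cells. The study marked 3 cells of each genotype as less degraded (Tnmd-/- 9, 10 and 20, WT 4, 5 and 10) and the others as more degraded, and Tnmd-/- 3 and 7 are among the latter. Results are therefore given by level and without these 2 cells.

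The ribosomal protein genes took 7.10% of the pooled Tnmd-/- counts (95% Clopper-Pearson interval 7.09% to 7.11%) and 5.42% of the pooled WT counts (5.42% to 5.43%). This is a log2 ratio of 0.39. Cell by cell the Tnmd-/- shares were 8.29%, 1.35%, 0.967%, 6.53%, 6.44% and 10.1% (cells 1, 3, 7, 9, 10 and 20). The WT shares were 5.64%, 4.76%, 5.62%, 5.41%, 3.96% and 9.75% (cells 1, 2, 4, 5, 10 and 14). The genotypes overlapped, with the 2 lowest cells and the highest one all Tnmd-/-. The median cell was at 6.49% in Tnmd-/- and at 5.52% in WT, and with equal weight per cell the log2 ratio was -0.061, on the other side of 0.

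**Figure D1:**
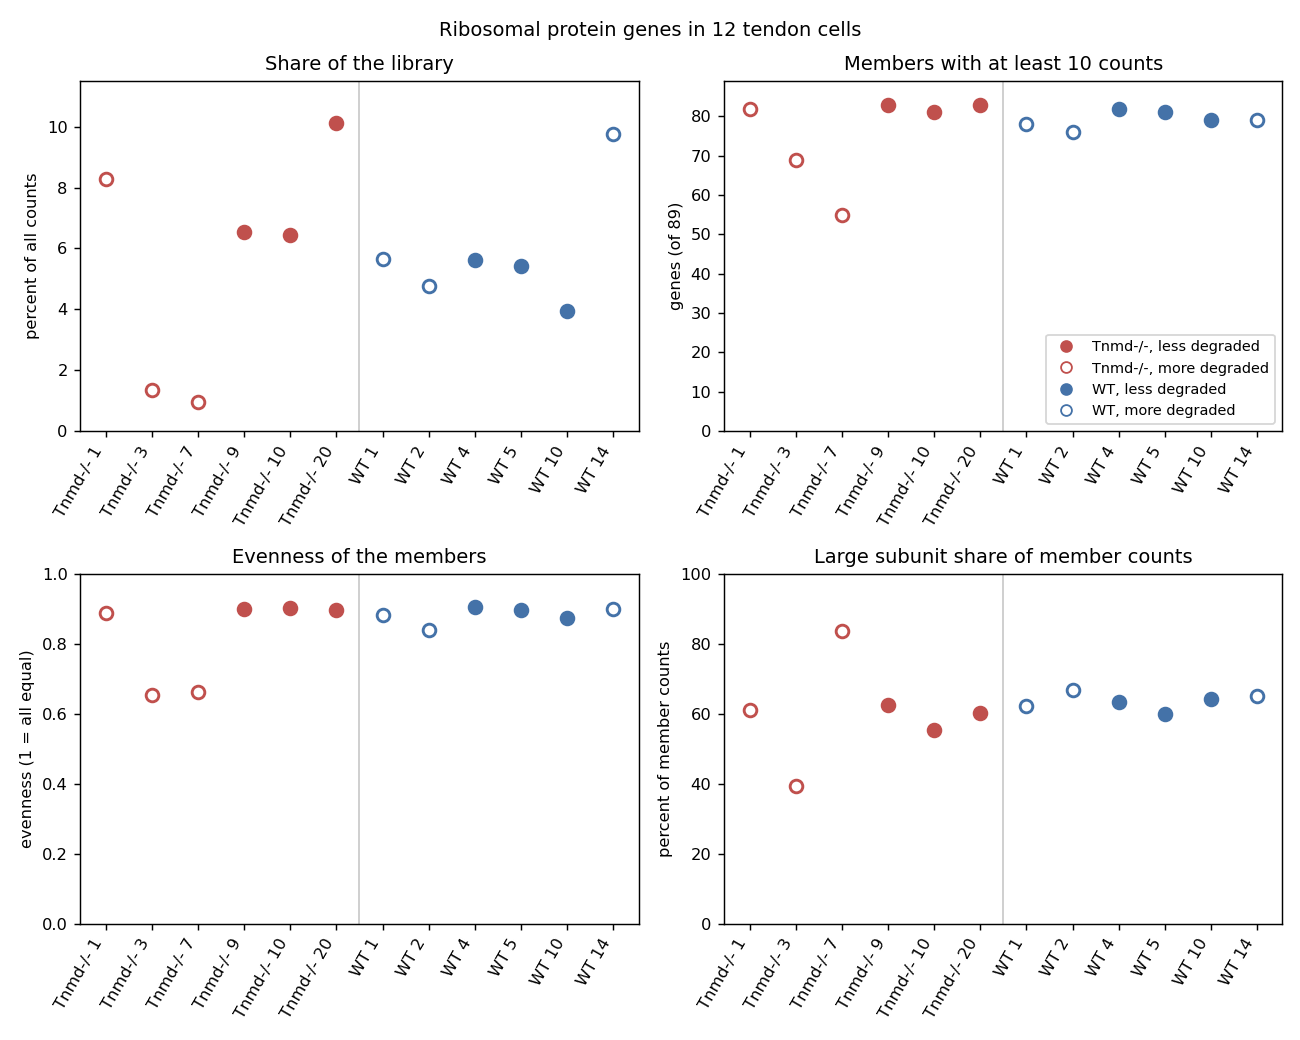
The 4 panels plot, for each of the 12 cells, the ribosomal protein share of all counts (percent), the number of the 89 members with at least 10 counts, the evenness of the members (1 when all hold equal counts) and the large subunit share of the member counts (percent). Red points are Tnmd-/- and blue points WT, filled for less and open for more degraded cells. Tnmd-/- cells 3 and 7 lie below the other 10 cells in the first 3 panels, at 1.35% and 0.967% of counts, and at the 2 ends of the fourth, at 39.4% and 83.6%.

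Within the less degraded cells the shares of the plain totals did not overlap. They were 6.44% to 10.1% in the 3 Tnmd-/- and 3.96% to 5.62% in the 3 WT cells. The pooled shares there were 7.38% and 4.96%, a log2 ratio of 0.57. After the mitochondrial genes and the 50 other genes with most counts were taken out of the total, these 3 Tnmd-/- cells were at 11.2%, 11.6% and 14.6% and the 3 WT cells at 8.98%, 8.49% and 8.18%. In the more degraded cells the pooled shares were 6.08% in Tnmd-/- and 6.58% in WT, a log2 ratio of -0.11. Tnmd-/- cell 1 held 440014 of the 468967 member counts in that Tnmd-/- pool. The median more degraded cell was at 1.35% in Tnmd-/- and at 5.64% in WT. Without Tnmd-/- cells 3 and 7 the log2 ratio over all remaining cells was 0.47. With 3 cells on each side and no animal named, the share of the genotype and that of the single cell cannot be told apart.

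The degradation level itself did not order the share in 1 direction. Pooled less degraded cells were at 5.97% and more degraded cells at 6.41%, a log2 ratio of -0.10. Within Tnmd-/- the less degraded cells were higher (log2 ratio 0.28), and within WT they were lower (-0.41). The more degraded Tnmd-/- pool was mostly cell 1, at 8.29%, while cells 3 and 7 were at 1.35% and 0.967%. WT cell 14, which is more degraded, held the highest WT share, and without it the log2 ratio of less over more degraded cells was 0.094.

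Nearly the whole set was seen in most cells. Of the 77 canonical members, 72 had at least 1 count in all 12 cells and 50 had at least 10 counts in all 12. At 10 counts, all 77 were seen in Tnmd-/- cells 1, 9 and 20 and in WT cell 4, and 73 to 76 in 6 further cells. Tnmd-/- cell 3 showed 67 and cell 7 showed 53. Both shallow cells still had 73 and 74 of the 77 at 1 count or more, and 4 and 3 canonical members were at 0 in them. When every cell was thinned to 892713 counts, 76 and 79 of the 89 members were detected in Tnmd-/- cells 3 and 7 and 79 to 83 in the other 10 cells.

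The counts were spread evenly over the members in 10 of the 12 cells. Evenness is the Shannon entropy of the member counts divided by its highest possible value. Tnmd-/- cells 1, 3, 7, 9, 10 and 20 were at 0.89, 0.65, 0.66, 0.90, 0.90 and 0.90. WT cells 1, 2, 4, 5, 10 and 14 were at 0.88, 0.84, 0.90, 0.90, 0.87 and 0.90. Put as an effective number of equally abundant genes, this is 43.2 to 58.0 in the 10 cells and 18.7 and 19.6 in Tnmd-/- cells 3 and 7. In these 2 cells 5 genes held 63.6% and 61.2% of the member counts, against 20.1% to 32.1% elsewhere. With every cell thinned to 892713 counts, evenness was 0.65 and 0.66 in Tnmd-/- cells 3 and 7 and 0.839 to 0.905 in the other 10 cells. Thinning takes reads away after amplification, so it does not imitate molecules lost before it. The part that degradation has in these values was not tested.

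The genes that led the 2 cells were not the same. In Tnmd-/- cell 3, Rps14, which lies at the platform of the small subunit, held 18.8% of the member counts at 2535 CPM, and Rps25 was at 1737 CPM against 134 to 1066 CPM in the cells other than 3 and 7. Rpl7 was at 2000 CPM and Rps7 at 1459 CPM in this cell, both within the range of the other 10 cells. In Tnmd-/- cell 7, Rpl15 was at 1437 CPM, Rpl26 at 1321 CPM and Rpl41 at 1102 CPM, again within that range. Against this, Rplp0 was at 101 and 115 CPM in the 2 cells and at 3447 to 9860 CPM in the other 10. Of the 77 canonical members, 49 in cell 3 and 58 in cell 7 were more than 10-fold below their median over the other 10 cells, and 6 and 7 were at or above it. Rps25, Rpl7, Rps7 and Rpl26 were picked out after their values were seen.

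**Figure D2:**
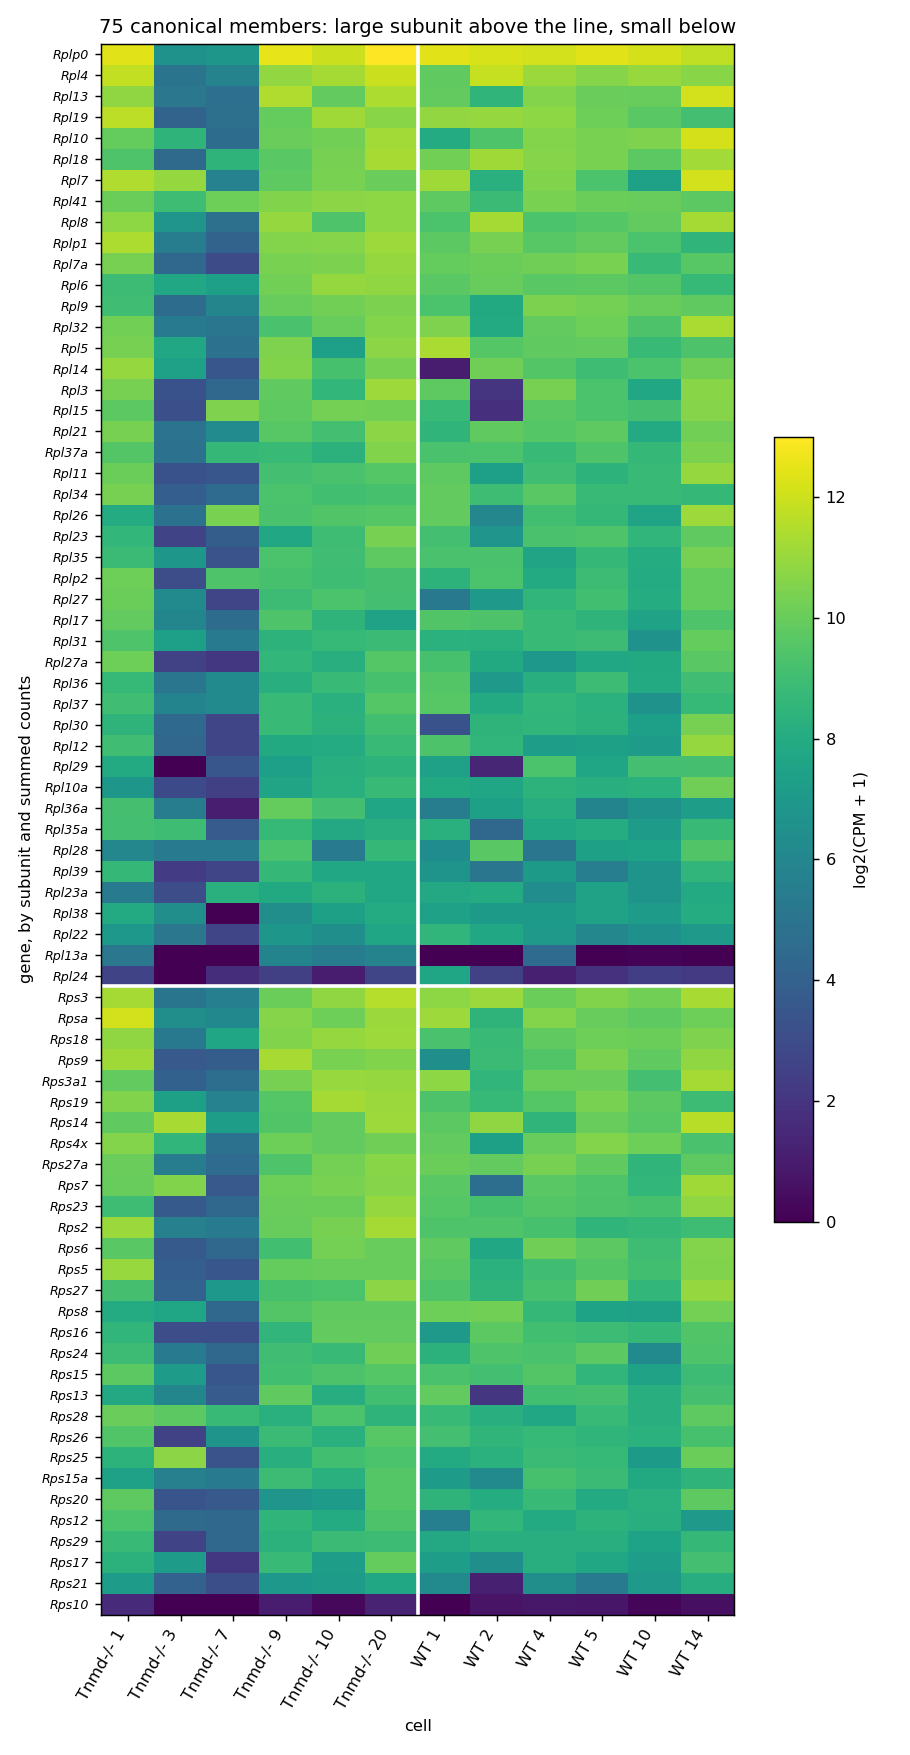
The heat map shows log2(CPM + 1) of 75 of the 77 canonical members (rows, large subunit above the white line and small below, each by falling summed counts) in the 12 cells (columns, Tnmd-/- left and WT right of the line). Columns of Tnmd-/- cells 3 and 7 are dark but for a few bright rows such as Rps14 in cell 3 and Rpl15 in cell 7, and the rows of Rpl24 and Rps10 are dark in almost every column and that of Rpl13a in 7 columns.

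The order of the members was shared most between the less degraded cells. Across the 77 canonical members, Spearman's rho of the counts was 0.72 to 0.84 over the 15 pairs of less degraded cells. It was 0.34 to 0.55 over the 6 pairs of more degraded cells other than Tnmd-/- 3 and 7, and 0.15 to 0.55 over the 20 pairs of these 2 with another cell. Between genotypes the median rho over 24 pairs of the 10 cells was 0.64, and within a genotype it was 0.61 over 21 pairs. These are descriptions across genes, which share gene length and library, and genes are not replicates.

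By subunit, the large subunit held 59.6% of the pooled member counts in Tnmd-/- (59.5% to 59.6%) and 63.1% in WT (63.1% to 63.2%). In single cells it was 55.3% to 62.6% in the 4 Tnmd-/- cells other than 3 and 7, and 59.9% to 66.8% in the 6 WT cells. Tnmd-/- cell 3 was at 39.4% and cell 7 at 83.6%. Divided by exon length the pooled shares were 61.3% and 63.9%. The large subunit has 53 of the 89 members, and the ranges of the genotypes overlapped.

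Levels between members are compared per kilobase of annotated exon, as the median CPM over the 12 cells. Rplp0, the base of the acidic stalk that recruits the elongation factors, was highest at 2831 CPM per kilobase, followed by its partner Rplp1 at 1777, Rpl19 at 1345, Rps3a1 at 1084 and Rpl32 at 1013. Per kilobase of the principal transcript alone, Rplp0 was again first with 3458, and Rpl41, whose protein is the shortest of the ribosome, was second with 2454. Rplp0 held the largest share of the member counts in 9 of the 12 cells, from 6.09% in Tnmd-/- cell 10 to 11.6% in WT cell 10. Rps14 and Rpl15 led in Tnmd-/- cells 3 and 7.

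Among the most counted genes of the large subunit over all cells were Rplp0 (453290), Rpl4 (194789), Rpl13 (140476) and Rpl19 (131988). The small subunit was led by Rps3 (144016), Rpsa (129269), Rps18 (112161), Rps9 (110839) and Rps3a1 (109232). Each of these genes had at least 10 counts in every cell. Rpsa is also known as the laminin receptor, and it was at 4463 CPM in Tnmd-/- cell 1, at 1609, 1123 and 2143 CPM in cells 9, 10 and 20, and at 83.7 and 67.2 CPM in cells 3 and 7. The WT cells were at 352 to 2199 CPM, all above Tnmd-/- cells 3 and 7 and all below cell 1.

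At the other end, 3 canonical members were close to absent in the table. Rps10, a protein of the small subunit head, had 58 counts over all 12 cells and at most 10 in a cell. Rpl24 had 1480 counts, of which 1213 were in WT cell 1 (202 CPM) and at most 58 in any other cell. Rpl13a had 1879 counts, and its median of 0.0174 CPM per kilobase was the lowest of the 77. The next lowest member was Rpl22 at 40.8 CPM per kilobase.

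These 3 genes are the only canonical members of which over 30% of the transcript lies inside an exon of another gene on the same strand. The share was 91.6% for Rps10 (chr17:27630418-27636669, minus strand, under RPS10-NUDT3), 71.5% for Rpl24 (chr16:55966275-55971435, plus strand, under Gm28037) and 59.3% for Rpl13a (chr7:45125558-45128761, minus strand, under Gm45713), all GRCm38. The 3 overlapping genes had 0 counts in all 12 cells. A read that lies in exons of 2 genes is dropped by featureCounts unless it is told otherwise, and the setting was not stated. Rpl35, Rpl23a, Rpl5 and Rpl30 have 34.7% to 68.3% of their transcript under a gene of the opposite strand, and they were at 112 to 391 CPM per kilobase. The part that the overlap has in the low values of Rps10, Rpl24 and Rpl13a was not tested.

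**Figure D3:**
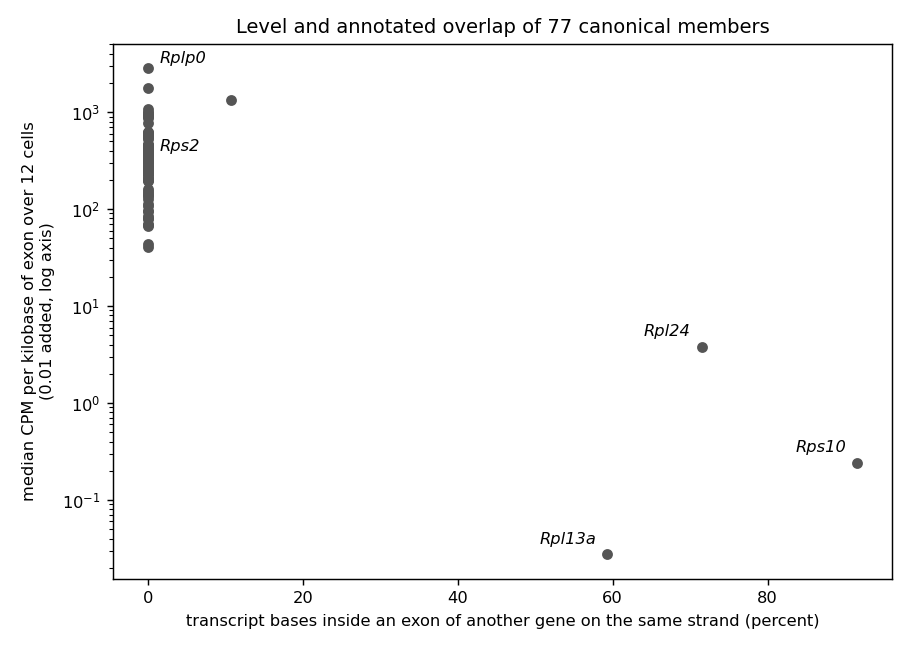
Each point is 1 of the 77 canonical members, with the percent of its principal transcript inside a same-strand exon of another gene on the x axis and its median CPM per kilobase of exon over the 12 cells on a log y axis (0.01 added). Rpl24, Rpl13a and Rps10 are the 3 points at the lower right, and 73 of the other 74 lie at 0% overlap, the exception being Rpl19 at 10.7%.

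Rpl13a also differed between cells. Tnmd-/- cells 1, 9, 10 and 20 were at 34.8, 56.7, 43.8 and 56.2 CPM, and cells 3 and 7 at 0 counts. WT cell 4 was at 22.2 CPM, cell 10 at 1 count and cells 1, 2, 5 and 14 at 0 counts. Its pooled log2 ratio of 2.91 (1 CPM added) was the highest of all members. The gene was picked out after its values were seen, and the overlap above bears on it.

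At least 20 counts over the 12 cells were reached by 84 members, all but Rps12l1, Rpl10l, Rpl3l, Rpl39l and Rpl32l. Of these, 70 had a pooled Tnmd-/- over WT log2 ratio above 0 and 14 below, with a median of 0.40. The median over all 9768 genes with that many counts was 0.06. The median was 0.24 for 49 large and 0.47 for 35 small subunit genes. At least 1 log2 unit higher in Tnmd-/- were 6 members (7.14%), among them Rpl13a, Rpl36a, Rps2, Rpl39 and Rplp1. At least 1 log2 unit lower were Rpl24, Rpl7l1 and Rps4l. Over all 9768 genes 35.5% were that much higher and 34.9% that much lower. Among the 663 other genes with at least 10 counts in every less degraded cell, 16.4% were higher and 12.1% lower. The direction of the members' median turned to -0.12 with equal weight per cell and was 0.46 without Tnmd-/- cells 3 and 7.

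**Figure D4:**
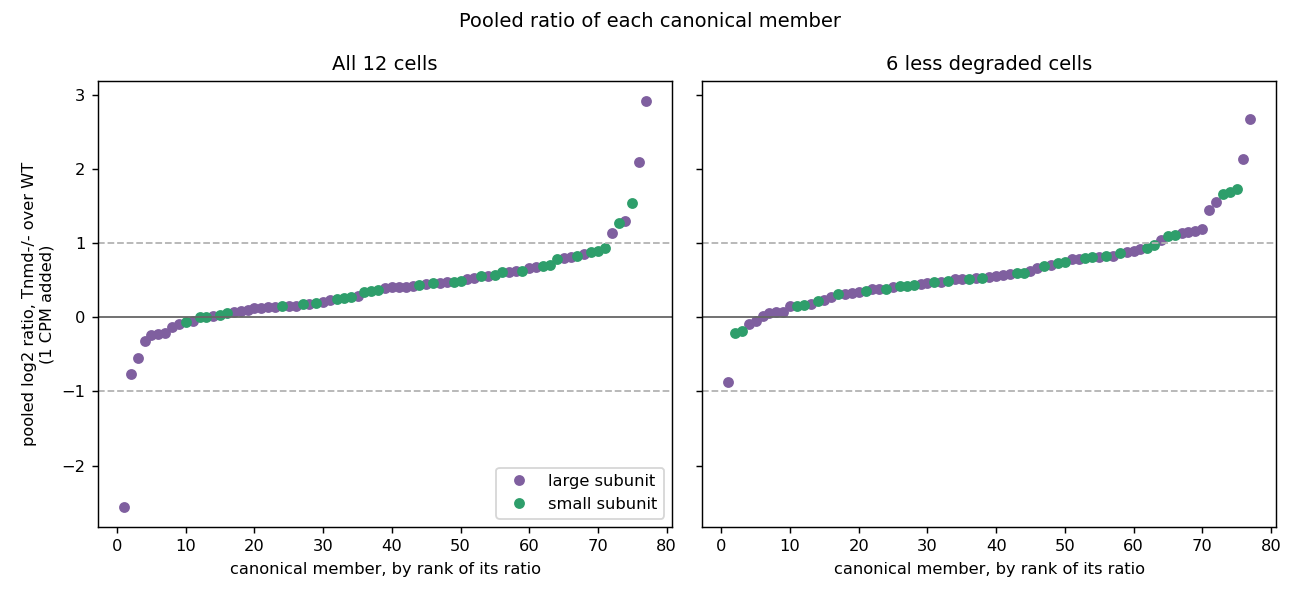
Both panels rank the 77 canonical members by their pooled log2 ratio of Tnmd-/- over WT CPM (1 CPM added), for all 12 cells on the left and for the 6 less degraded cells on the right. Purple points are large and green points small subunit genes, and dashed lines mark 1 log2 unit. Most points lie between 0 and 1, with 66 of 77 above 0 on the left and 72 of 77 on the right.

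Within the less degraded cells the median member ratio was 0.54 over 84 members, and the median of 7958 genes was -0.04. There 15 members were at least 1 log2 unit higher in Tnmd-/- and 2 lower, beside 34.8% and 38.2% of the 7958 genes. All 3 Tnmd-/- cells were above all 3 WT cells in 25 of the 84 members (29.8%), and in none were they all below. Over the 7958 genes these shares were 3.00% and 3.27%, and over the 663 other genes with at least 10 counts in each of the 6 cells they were 11.8% and 4.37%. Members of 1 cell share its library total, so these 25 are not separate observations. The 25 rest on plain totals as well, and a count with TMM totals was not made. In the more degraded cells the median ratio was -0.17 over 82 members, with 9 at least 1 log2 unit higher and 20 lower. Of 6027 genes there, 45.3% were that much higher and 41.1% that much lower.

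Rps2, which lines the mRNA entry of the small subunit, was at 2143, 50.5, 41.4, 1012, 1288 and 2429 CPM in Tnmd-/- cells 1, 3, 7, 9, 10 and 20. In the WT cells it was at 695, 680, 597, 362, 398 and 500 CPM in cells 1, 2, 4, 5, 10 and 14. The 4 Tnmd-/- cells other than 3 and 7 were all above the 6 WT cells. The pooled log2 ratio was 1.55 (counting interval 1.52 to 1.57), and it was 1.69 in the less and 1.24 in the more degraded cells. The value of 1.24 rests on Tnmd-/- cell 1, as cells 3 and 7 were below all WT cells. Of the windows along its transcript, 64.7% occurred in another gene.

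Rplp1, the other acidic stalk protein, ran the same way, at 2679, 43.2, 16.8, 1553, 1587 and 2215 CPM in the Tnmd-/- cells 1, 3, 7, 9, 10 and 20. The WT cells were at 838, 1270, 782, 935, 649 and 367 CPM. The pooled log2 ratio was 1.14, with 1.14 in the less and 1.15 in the more degraded cells. The value of 1.15 rests on Tnmd-/- cell 1, as cells 3 and 7 were below all WT cells. The stalk genes did not share 1 ratio: Rplp0 was at a log2 ratio of 0.24, with 4474, 5481 and 4597 CPM in the less degraded WT cells and 5941, 3923 and 9860 CPM in the less degraded Tnmd-/- cells, which overlap, and Rplp2 was at 0.62.

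Rpl36a, an X-linked protein of the large subunit, was at 568, 44.5, 1.12, 974, 562 and 206 CPM in the Tnmd-/- cells 1, 3, 7, 9, 10 and 20, and at 43.2, 166, 271, 57.4, 101 and 153 CPM in the WT cells. Cell 20 overlapped with the WT range. The pooled log2 ratio was 2.10 (2.07 to 2.14), and 83.6% of its windows occurred in another gene. Rpl39, which lines the exit tunnel for the new peptide, was at 210 to 409 CPM in the 4 Tnmd-/- cells other than 3 and 7 and at 33.8 to 376 CPM in WT, a log2 ratio of 1.30.

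**Figure D5:**
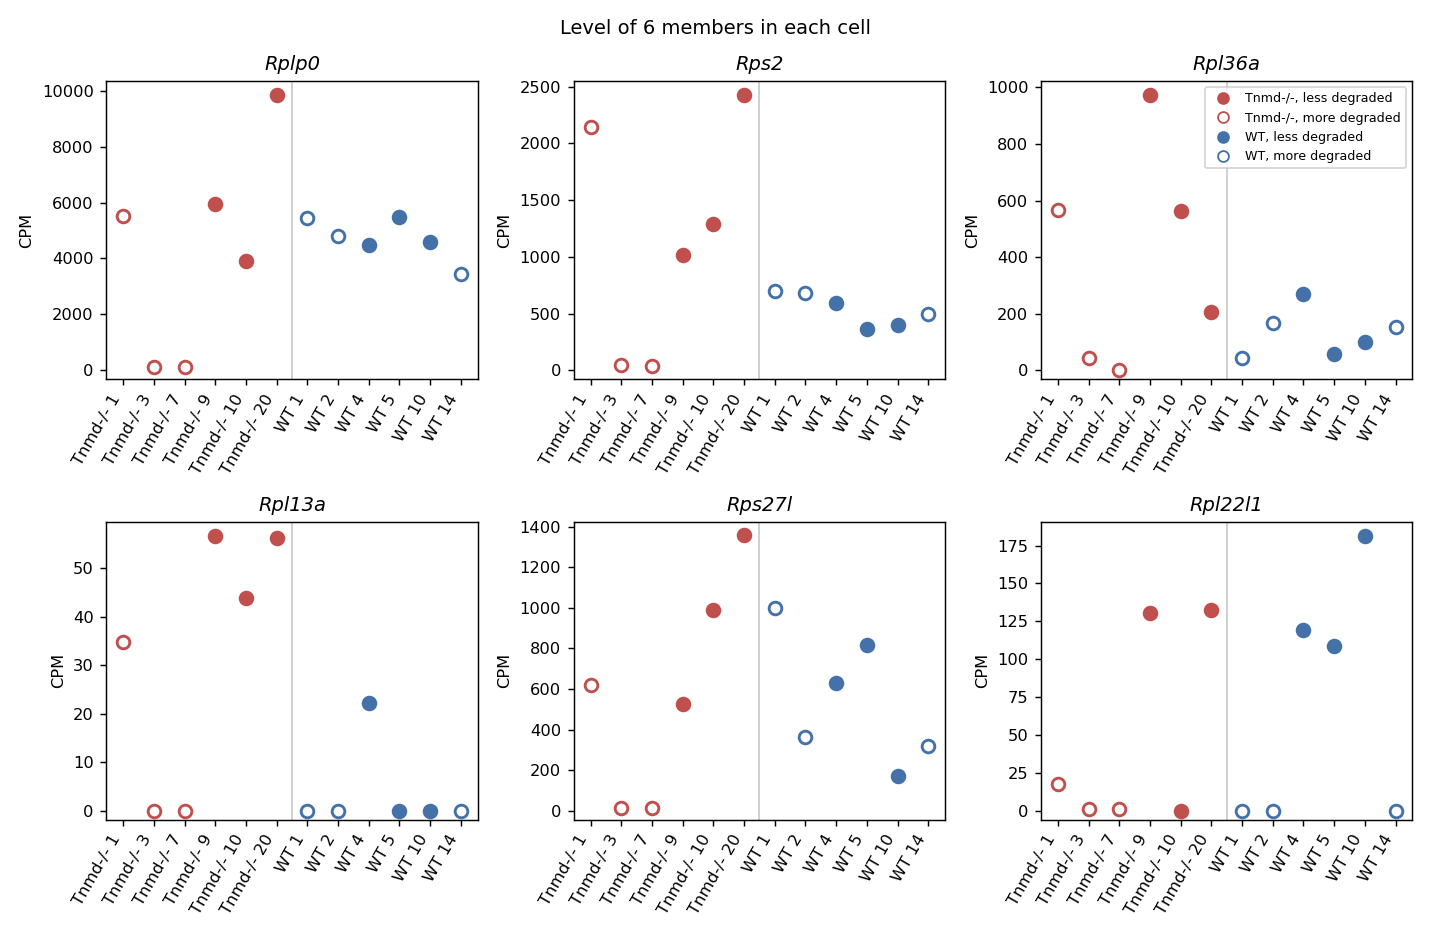
The 6 panels show CPM (y axis) in each of the 12 cells for Rplp0, Rps2, Rpl36a, Rpl13a, Rps27l and Rpl22l1, in red for Tnmd-/- and blue for WT cells, filled for less and open for more degraded. Rps2 is above 1000 CPM in 4 Tnmd-/- cells and below 700 CPM in all WT cells, and Rpl22l1 is above 100 CPM in 5 of the 6 less degraded cells and below 20 CPM in all other cells.

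The canonical members with the lowest ratios among the better covered ones were Rpl29, Rpl10a, Rpl12 and Rpl22, all of the large subunit. Rpl29 was at 244, 0, 10.1, 160, 289 and 343 CPM in Tnmd-/- and 175, 1.66, 635, 202, 548 and 566 CPM in the WT cells 1, 2, 4, 5, 10 and 14. Its pooled log2 ratio was -0.77, with overlapping cells. Rpl10a (-0.55) and Rpl12 (-0.31) were led by WT cell 14, with 1156 and 1939 CPM, and in the less degraded cells alone their ratios were -0.08 and 0.92. Rpl22, an RNA-binding protein that is dispensable for most cells, was at -0.25 overall and 0.40 in the less degraded cells. For Rpl12 and Rpl22 the direction thus depended on the level.

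Several members are known for a role beside the ribosome or for their place in its making. Rpl5 and Rpl11, which with the 5S RNA can bind the p53 regulator Mdm2, were at log2 ratios of 0.09 and 0.15. Rpl5 was at 2577 CPM in WT cell 1 and at 435 to 924 CPM in the other 5 WT cells. Rps6, the substrate of the S6 kinases, was at 836 CPM in pooled Tnmd-/- and 835 CPM in pooled WT cells. Rps27a, made as a fusion with ubiquitin, was at 0.25, Rpl10, one of the last proteins to join the large subunit, at -0.22, and Rpl41 at 0.56. Rpl41 was among the steadiest members: over the 6 less degraded cells its highest CPM was 1.81 times its lowest.

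The spread of each member over the less degraded cells was mostly within a few fold. Over the 75 canonical members with at least 10 counts in each of these 6 cells, the highest CPM was 1.40 to 18.5 times the lowest, with a median of 3.28. For 267 other genes within the central 80% of the members' mean level, the median was 10.9. The steadiest member was Rpl9, at 998, 1207 and 1374 CPM in Tnmd-/- and 1401, 1227 and 1015 CPM in WT, and the least steady was Rpl28.

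By level, the members highest in less over more degraded cells were Rpl22l1 (log2 ratio 4.44), Rps15a (1.44) and Rpl9 (1.21), when the level that was higher had to reach 50 CPM and hold 10 counts in 4 cells. Below that coverage lay the pseudogene Rps4l (5.85) and Rpl13a (1.57). Those lowest were Rpl7l1 (-4.00), Rpl24 (-3.82) and Rpl12 (-1.82). Of the 84 members, 5 were at least 1 log2 unit higher and 5 lower, beside 43.2% and 32.0% of 9768 genes, and the members' median was -0.11. Of the 1480 counts of Rpl24, 1213 were in WT cell 1, and its ratio was -0.15 within Tnmd-/- and -4.47 within WT. For Rpl7l1 the ratio was -6.69 within Tnmd-/- and -3.64 within WT, and WT cell 14 held 7658 of its 12014 counts. The Rpl12 ratio was -0.30 within Tnmd-/- and -2.61 within WT.

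The paralogues and copies were uneven. Rps27l was seen with at least 10 counts in all 12 cells, at 619, 15.3, 14.6, 529, 988 and 1357 CPM in the Tnmd-/- and 998, 363, 632, 816, 174 and 319 CPM in the WT cells. Its median level of 703 CPM per kilobase of exon lay above the 569 of the canonical Rps27, but per kilobase of the principal transcript it was below, at 1150 against 1721. Of the Rps27 windows, 98.4% occurred in another gene, and the part that this has in its level was not tested. The pooled log2 ratio of Rps27l was 0.55, close to the median of the members.

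Rpl22l1, which can take the place of Rpl22, differed widely between cells. It was at 130 and 132 CPM in Tnmd-/- cells 9 and 20 and at 119, 109 and 182 CPM in WT cells 4, 5 and 10, all less degraded. The remaining less degraded cell, Tnmd-/- 10, had 0.0970 CPM, and the more degraded cells had 18.1 CPM in Tnmd-/- 1 and at most 1.33 CPM in the others. The part that degradation or depth has in these values was not tested. Rpl7l1, a factor of ribosome assembly, was at 1696 CPM in WT cell 14, 243 in Tnmd-/- cell 1, 213 in WT cell 1, 128 in WT cell 5 and below 20 CPM in the remaining 8 cells. The pseudogene Rps4l was at 286 CPM in WT cell 4, 81.8 in Tnmd-/- cell 10 and 17.1 in Tnmd-/- cell 20, and at most 2.24 CPM elsewhere.

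The paralogues with known expression in other tissues were not detected or close to it. Rpl3l, of striated muscle, and Rpl10l, of the testis, had 0 counts in all 12 cells, as had the copy Rps12l1. Taking 3 counts as the floor of the summed depth, this allows up to 0.0855 CPM for Tnmd-/- and up to 0.0561 CPM for WT. For Rps12l1, 100% of the windows occur in other genes. Rpl39l, also of the testis, had 7 counts, all in Tnmd-/- cell 7, where Rpl39 had 5.60 CPM. The other copies, Rpl6l, Rps3a2, Rps3a3 and Rpl32l, had 204, 321, 113 and 9 counts over all cells.

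Genes tied to the ribosome but outside the set give a frame. The 15 other mRNAs known for a pyrimidine start, such as the elongation factors Eef1a1 and Eef2, took 21530 CPM in pooled Tnmd-/- and 14176 CPM in pooled WT cells, and 4 were at least 1 log2 unit higher and 1 lower. For this list and the next ones, the shares to read the counts against are the 35.5% higher and 34.9% lower of all 9768 genes. In the less degraded cells their median log2 ratio was 0.75. Their share was 0.18% and 0.14% in Tnmd-/- cells 3 and 7 and 0.73% to 3.31% in the other 10. Of 34 ribosome biogenesis genes, 10 were at least 1 log2 unit higher in Tnmd-/- and 8 lower, with a median of 0.45. Over the 32 of them measured in the less degraded cells the median was 0.16. The 69 measured genes of the mitochondrial ribosome had a median of -0.80, with 19 higher and 34 lower, and in the less degraded cells it was -1.30. Their list took 2483 CPM in pooled Tnmd-/- and 2733 CPM in pooled WT cells, and 2314 and 3204 CPM in the less degraded ones. Of its 78 genes, 18 to 21 reached 10 counts in a less degraded Tnmd-/- cell and 30 to 39 in a less degraded WT cell. The part that depth and low counts have in these medians was not tested. The 300 -ps pseudogenes added 0.40 counts to every 100 member counts in Tnmd-/- and 0.35 in WT.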

How the data were processed

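Raw counts per gene for 12 single cells were deposited by the authors, who aligned reads to GRCm38 with STAR 2.5.1b and counted them per gene with featureCounts from Subread 2.0.0 (versions from the submitters' processing notes). Counting strand and the handling of reads in 2 genes were not stated. Only exonic reads with 1 place of mapping entered the table, so members that share sequence with pseudogenes or copies can be counted low to an unknown extent. The table's Length column, a summed exon length in bases, was deposited with the counts. The values carry no normalization and no molecular identifiers.

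Counts were divided by the total of a cell, or of the cells pooled, times 1000000 (CPM). Pooled log2 ratios used genes with at least 20 counts over the cells compared and 1 CPM added. Ratios printed with a counting interval have no CPM added. A zero count was set against 3 counts. Intervals are exact at 95%. Totals ran from 892713 to 13613080 counts. Degradation level came from the study's annotation of its cells and not from the labels. Gene models came from GENCODE M21, in which all 55418 symbols were found and 99.9% had the same exon length. Members, lists and the rule for naming genes were chosen with earlier results of these data known. Named are the 5 most counted members of each subunit, members with special roles, all paralogues, the 5 largest ratios each way between genotypes with at least 50 CPM and 10 counts in 4 cells of the higher genotype, up to 3 each way between levels, members with 3 counts or fewer and the leading member of each cell. Some genes that these rules name are not reported here. Others are said to be chosen after their values were seen, or appear in a complete list. Alternatives were equal weights, reduced totals, 5 CPM added, 100 counts or no minimum, edgeR 4.0.16 TMM and DESeq2 1.42.0 size factors, thinning, each level alone and each cell left out. Tests on simulated data gave a median absolute error of 0.03 for the pooled log2 ratio of 200 genes changed by 2 log2 units among 5714. These counts were drawn with Poisson error from 1 profile for all cells of a genotype. The error therefore leaves out differences between cells and is not the accuracy of the ratios in these data. Scripts ran in Python 3.11.15 and R 4.3.3.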

Additional observations from a re-analysis of the deposited data

Results flagged for a closer look

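Over 90 groups of 6 cells of 1 genotype, 13 values lay far from the other 5 cells. Most of the group's range lay between such a value and the nearest one. By chance about 1 in 20 groups would be flagged. Members are measured in the same cells and their groups are not independent, so the 13 values cannot be set against that rate. WT cell 14 stood out in 6 members and in the ribosomal protein share of 9.75%: Rpl10 at 4590 CPM, Rpl10a at 1156 CPM, Rpl12 at 1939 CPM, Rpl13 at 4501 CPM, Rpl39 at 376 CPM and Rpl7l1 at 1696 CPM, each the highest of the 6 WT cells. This cell is also the 1 WT cell with more than 7 counts of Tnmd, and 177982 CPM of its counts lay in tendon fibroblast markers, and the relation between these values was not tested. WT cell 1 stood out with Rpl24 at 202 CPM and Rpl5 at 2577 CPM. Of the Rpl24 transcript, 71.5% lies under a gene of the same strand. For Rpl5 the overlap of 46.6% is with a gene of the opposite strand, and it is 0% on the same strand. The other values were Rps4l at 286 CPM in WT cell 4 and at 81.8 CPM in Tnmd-/- cell 10, Rpl7l1 at 243 CPM in Tnmd-/- cell 1 and the pseudogene Rps3a3 at 20.2 CPM in Tnmd-/- cell 7, which is 18 counts.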

How the results depend on the processing

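The shares are sensitive to how cells are weighted. In this paragraph values come in the order Tnmd-/- and WT where a pair is given. The ribosomal protein share was 5.62% and 5.86% with equal weight per cell, and 7.13% and 5.44% with the -ps pseudogene reads added. It was 11.6% and 9.05% with a total without mitochondrial genes and the 50 most counted other genes. From that total no ribosomal protein gene was taken out. In the less degraded cells the share was 7.38% and 4.96%, and in the more degraded cells 6.08% and 6.58%. Without Tnmd-/- cells 3 and 7, an alternative chosen after seeing the data, the Tnmd-/- share was 7.53%. Leaving out 1 cell gave 6.38% to 7.37% for Tnmd-/- and 5.02% to 5.93% for WT.

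The log2 ratio of the shares changed sign with equal weight per cell (-0.061), as a difference of mean log2 cell shares (-0.46), with DESeq2 size factors (-0.010), with TMM effective totals (-0.062) and in the more degraded cells (-0.11). It was 0.35 with the reduced total, 0.39 without paralogues, 0.57 in the less degraded cells, 0.47 without Tnmd-/- cells 3 and 7, and 0.23 to 0.50 with 1 cell left out. The members' median log2 ratio likewise turned to -0.12 with equal weight, -0.43 with DESeq2 size factors, -0.17 with TMM and -0.17 in the more degraded cells. It was 0.31 with 5 CPM added, 0.35 with no count minimum, 0.54 in the less degraded cells, 0.46 without Tnmd-/- cells 3 and 7, and 0.19 to 0.52 with 1 cell left out. Members at least 1 log2 unit higher numbered 15 in the less degraded cells and 5 to 10 with 1 cell left out, and those lower numbered 6 with equal weight, 20 in the more degraded cells and 2 to 3 with 1 cell left out. The log2 ratio of less over more degraded cells turned to 0.31 with equal weight, 0.060 with the reduced total and 0.28 in Tnmd-/- cells. It was -0.41 in WT cells, -0.23 without Tnmd-/- cells 3 and 7, and -0.22 to 0.094 with 1 cell left out.

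The median number of members detected was 80 and 80 after thinning and 79 and 81 in the more degraded cells, and 79 in WT at 10 counts. Median evenness of Tnmd-/- cells was 0.66 in the more degraded ones. The large subunit share was 61.3% and 63.9% per kilobase, 60.3% and 63.6% with equal weight, 59.4% and 62.4% in the less degraded and 60.5% and 64.5% in the more degraded cells. With 1 cell left out it was 58.5% to 61.1% and 62.8% to 64.0%. The causes of these changes were not tested. No paired analysis was possible because the labels' cell numbers name picked cells and tie no Tnmd-/- cell to a WT cell. The reads were amplified and carry no molecular tag, so counting intervals understate the error, and the cells differ by far more than these intervals.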
